A study of Mus musculus with 3 samples.

Results

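The regions described here carried an H3K27ac peak in both Arid1a knockout clones and none in the wild-type clone. They were chosen by the peak calls themselves, so that presence, fold and q in these lists describe them and test nothing. Peaks of 3 deposited lists that touched or overlapped by at least 1 bp were merged, and a merged region was kept where the heterozygous and the homozygous list each had a peak in it and the wild-type list had none. Of 52938 merged regions 1671 met this rule, which is 3.16% of the series. H3K27ac had been profiled by ChIP-seq with a commercial antibody (Abcam Ab4729) in MIN6, an insulin-secreting line from a mouse insulinoma that serves as a beta cell model. The groups were Heterozygous ARID1A KO, Homozygous ARID1A KO and Wildtype, with 1 library each. Per the labels, cells that stably carried a Cas9 lentivirus after blasticidin selection received a lentiviral guide RNA against Arid1a and puromycin, and single clones were sorted into the 3 genotypes by PCR and an ARID1A Western blot. The labels give this protocol for the wild-type clone too. As far as the labels show, each genotype was 1 clone, so that a difference between genotypes and a difference between clones cannot be told apart, and no comparison here carries a test or a p-value.

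H3K27ac is an acetylation of histone H3 that marks active promoters and enhancers. ARID1A is a DNA-binding subunit of the canonical BAF form of the SWI/SNF complex, which uses ATP to move or evict nucleosomes at promoters and enhancers. ARID1B, the paralog of ARID1A, is the alternative subunit in that form. Beta cells of this line make insulin under factors such as Pdx1, Nkx6-1, Mafa and Neurod1, and growth factor signals through ErbB receptors and the MAPK cascade are known to act on beta cell proliferation.

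The heterozygous list held 31365 peaks, the homozygous list 34298 and the wild-type list 41490. The lowest background recovered from a list was 1.73 reads per position in the heterozygous library, 1.74 in the homozygous library and 2.17 in wild type, and the sources used here give no read totals. Depth and genotype cannot be told apart. Beta cell identity was checked at the gene ends: Ins1, Ins2, Iapp, Nkx6-1, Mafa, Neurod1 and Isl1 had a peak within 1 kb of an end in each library, Pdx1 had 0 heterozygous, 2 homozygous and 1 wild-type peak, while Gcg had 1 peak in the homozygous library only, Cela1 1 in the heterozygous library only, and Sst, Ppy, Cpa1, Ptprc, Pecam1, Krt19 and Col1a1 had 0 in each. Over the gene lists, 13 of 20 beta cell factor and 23 of 36 secretory genes had a gene-end peak in all 3 libraries. So did 3 of 13 mesenchymal, 3 of 13 duct and keratin, 1 of 11 acinar and 1 of 14 immune and endothelial markers. Alpha markers had 0 of 9, and delta, PP and epsilon markers 0 of 7. The names of the wild-type peaks contain GAL4, a tag that no source used here explains, and the genotype of that library was taken from its labels.

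Sequence is shown first for the promoters that the strongest of the regions lay on, because these are the places where a peak in both knockouts stood at a gene start with no wild-type peak near it. The promoters are RefSeq windows of 300 bases on GRCm38.p6, the assembly of mm10, with 250 bases before and 50 after the transcription start. The 3 protein-coding promoters under the highest-ranking regions were those of Tpbg on the plus strand at chr9:85842602-85842901, of Oat on the minus strand at chr7:132576349-132576648 and of Ocln on the minus strand at chr13:100552449-100552748. Each is printed 5′ to 3′ with the GC box, GGGCGG or its complement, in capitals.
Tpbg: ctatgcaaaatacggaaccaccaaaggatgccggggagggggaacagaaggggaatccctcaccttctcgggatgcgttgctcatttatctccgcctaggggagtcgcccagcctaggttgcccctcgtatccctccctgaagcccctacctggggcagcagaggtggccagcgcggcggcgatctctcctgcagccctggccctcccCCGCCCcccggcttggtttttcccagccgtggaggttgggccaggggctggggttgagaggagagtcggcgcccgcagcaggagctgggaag
Oat: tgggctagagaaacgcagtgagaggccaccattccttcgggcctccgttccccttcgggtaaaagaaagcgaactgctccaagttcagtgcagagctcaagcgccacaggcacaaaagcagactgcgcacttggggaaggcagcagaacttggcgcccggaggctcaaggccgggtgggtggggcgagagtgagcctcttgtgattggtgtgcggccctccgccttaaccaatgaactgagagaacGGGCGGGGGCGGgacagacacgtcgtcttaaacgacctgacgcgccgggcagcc
Ocln: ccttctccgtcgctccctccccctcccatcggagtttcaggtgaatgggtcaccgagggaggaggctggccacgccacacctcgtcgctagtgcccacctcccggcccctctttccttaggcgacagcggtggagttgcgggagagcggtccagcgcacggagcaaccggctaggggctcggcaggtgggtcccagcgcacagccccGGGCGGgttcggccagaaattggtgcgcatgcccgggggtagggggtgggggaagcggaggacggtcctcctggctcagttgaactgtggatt
All 3 held at least 1 GC box and no AP-1 match, and their GC content was 65.7% at Tpbg, 61.7% at Oat and 68.0% at Ocln. The Tpbg and Ocln windows lay wholly inside their regions. The Oat region, at chr7:132575909-132576366, covered only the last bases of its window, after the start, so that its GC boxes lay outside the region. The GC box was found in 55.3% of the promoters under these regions, in 68.8% of those under regions of all 3 libraries, in 35.7% of all promoters in the table and in 17.0% of those under no region.

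A second set of promoters held the AP-1 motif TGACTCA, the element bound by FOS and JUN dimers, on either strand. Shown are the 5 protein-coding promoters with a match under the highest-ranking regions, with the match in capitals: Gpr39 on the plus strand at chr1:125676746-125677045, Shc4 on the minus strand at chr2:125724099-125724398, Odaph on the plus strand at chr5:91987223-91987522, Entpd3 on the plus strand at chr9:120539568-120539867 and Gatad2a on the minus strand at chr8:69974334-69974633.
Gpr39: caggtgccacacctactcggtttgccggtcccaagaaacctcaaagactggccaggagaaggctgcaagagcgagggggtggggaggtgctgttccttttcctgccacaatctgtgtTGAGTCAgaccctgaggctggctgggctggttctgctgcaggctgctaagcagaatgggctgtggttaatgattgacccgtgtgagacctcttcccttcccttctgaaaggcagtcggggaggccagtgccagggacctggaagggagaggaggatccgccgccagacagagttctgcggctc
Shc4: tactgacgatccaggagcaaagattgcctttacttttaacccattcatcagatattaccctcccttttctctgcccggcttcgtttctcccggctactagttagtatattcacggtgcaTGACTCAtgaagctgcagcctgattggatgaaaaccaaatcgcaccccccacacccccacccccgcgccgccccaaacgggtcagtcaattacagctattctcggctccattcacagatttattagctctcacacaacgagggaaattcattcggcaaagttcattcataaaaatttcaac
Odaph: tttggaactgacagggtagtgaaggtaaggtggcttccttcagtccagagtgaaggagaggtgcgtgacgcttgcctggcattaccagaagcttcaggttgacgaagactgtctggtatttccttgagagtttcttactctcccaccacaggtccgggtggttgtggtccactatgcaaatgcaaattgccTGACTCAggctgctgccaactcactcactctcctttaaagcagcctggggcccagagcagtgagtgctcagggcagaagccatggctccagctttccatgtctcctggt
Entpd3: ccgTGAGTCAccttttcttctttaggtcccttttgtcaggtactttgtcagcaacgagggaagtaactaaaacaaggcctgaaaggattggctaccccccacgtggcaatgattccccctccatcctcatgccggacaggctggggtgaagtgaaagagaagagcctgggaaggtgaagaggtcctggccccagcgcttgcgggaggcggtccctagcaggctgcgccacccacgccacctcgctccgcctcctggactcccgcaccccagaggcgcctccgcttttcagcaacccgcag
Gatad2a: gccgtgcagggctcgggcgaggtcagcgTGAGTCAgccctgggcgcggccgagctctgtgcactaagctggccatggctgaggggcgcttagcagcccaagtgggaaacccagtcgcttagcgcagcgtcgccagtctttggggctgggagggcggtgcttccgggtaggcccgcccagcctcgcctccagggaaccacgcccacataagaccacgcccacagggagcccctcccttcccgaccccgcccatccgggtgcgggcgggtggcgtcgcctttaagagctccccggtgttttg
The matches began at -133 bases from the start in Gpr39, -131 in Shc4, -59 in Odaph, -247 in Entpd3 and -222 in Gatad2a. In Shc4, Odaph and Gatad2a the motif lay inside the region itself, and in Gpr39 and Entpd3 the region covered another stretch of the window. The Gatad2a region lay 229 bp from a wild-type peak. A match is a run of letters and does not show that a factor was bound.

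Within each knockout list the regions were mostly weaker than the average peak. Fold enrichment, the authors' own ratio of a peak over its local background, is used here only to describe and rank peaks within a list, and the strongest peak of a region, by −log10 q, stands for it. Values marked het come from the heterozygous list and values marked hom from the homozygous list. In the heterozygous list the regions had a median fold of 5.00 (quartiles 4.05 to 6.03, lowest 1.91, highest 17.3), against 5.81 for the whole list. In the homozygous list the median was 5.49 (quartiles 4.40 to 6.85, lowest 1.70, highest 24.3), against 6.31 for the whole list. Placed as a percentile among all peaks of the list, the median region stood at 35.1 in the heterozygous and 37.2 in the homozygous list. The 19504 regions present in all 3 libraries stood higher, at 64.8 in the heterozygous, 66.9 in the homozygous and 70.7 in the wild-type list. Regions of wild type and 1 knockout stood near the set, at 37.9 in the heterozygous and 37.6 in the homozygous list. Regions of 1 knockout alone stood somewhat lower than the set, at 30.8 for the 4581 heterozygous and 31.0 for the 6797 homozygous ones. These are the values that chose the regions.

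**Figure D1:**
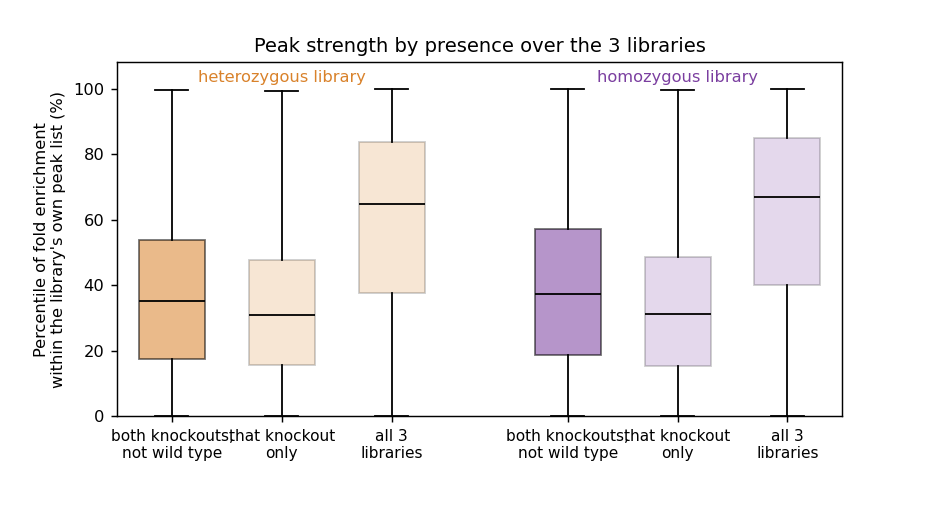
Percentile of each region's fold enrichment within the library's own peak list (y axis, %), for the heterozygous library on the left and the homozygous library on the right. Boxes show the quartiles and the median, and whiskers the lowest and highest region. The regions in both knockouts and not in wild type (dark boxes) had medians of 35.1 (het) and 37.2 (hom), below those of the regions in all 3 libraries at 64.8 (het) and 66.9 (hom).

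A stronger subset existed. Above the median fold of the heterozygous list lay 496 regions, above that of the homozygous list 546, and above both 307 (18.4%). The top 10% by fold held 10 of the regions in the heterozygous list and 20 in the homozygous list, and 4 were in the top 10% of both, those nearest to Cyp2d34, Tpbg, Etv4 and Oat. Most regions, 1592 of 1671 (95.3%), were made of 1 peak in each knockout. The merged regions had a median width of 468 bp (quartiles 358 to 650). The summits of the strongest heterozygous and homozygous peak were a median of 59 bp apart, and in 1174 regions (70.3%) they lay within 100 bp of each other. Across the 1671 regions the folds of both lists had a Spearman correlation of 0.64 and a Pearson correlation of 0.63, and across the regions in all 3 libraries 0.83 and 0.84. The points share their libraries and background, so these are descriptions.

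**Figure D2:**
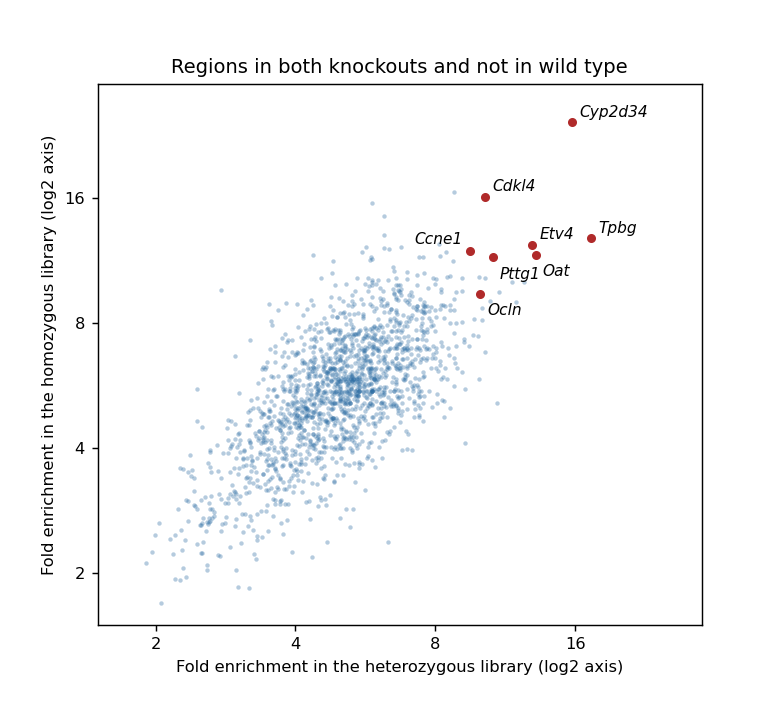
Fold enrichment of each of the 1671 regions in the heterozygous list (x axis) and the homozygous list (y axis), both on log2 axes, with 1 point a region. Named points are the leading regions: Cyp2d34 at 15.7 (het) and 24.3 (hom) and Tpbg at 17.3 (het) and 12.8 (hom) lie at the upper right, while the bulk lies near the medians of 5.00 (het) and 5.49 (hom).

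The clearest case at a gene start was Tpbg, which encodes trophoblast glycoprotein, a membrane protein that dampens Wnt signalling. Its region at chr9:85842436-85842922 had a fold of 17.3 in the heterozygous list (−log10 q of 90.8) and 12.8 in the homozygous list (−log10 q of 29.6). The summit pile-ups, read depths recovered from the deposited fold and −log10 p, were 103 (het) and 34 (hom) reads. No wild-type peak lay in the gene or within 1 kb of it, and the nearest wild-type peak was 74432 bp away. In the heterozygous library a further peak with a fold of 4.52 lay 991 to 1283 bp into the gene.

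Oat encodes ornithine aminotransferase and is counted among the genes that beta cells normally keep silent. Its end carried a pair of regions. The region at chr7:132575909-132576366 had a fold of 13.2 in the heterozygous and 11.7 in the homozygous list, with pile-ups of 130 (het) and 65 (hom) reads. Its neighbour at chr7:132575269-132575767 had folds of 6.83 in the heterozygous and 5.85 in the homozygous list. The gene had 2 heterozygous, 6 homozygous and 0 wild-type regions, and the nearest wild-type peak was 33919 bp from the stronger region.

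Etv4 encodes an ETS transcription factor of the PEA3 group that is induced downstream of FGF and ERK signalling. Its region at chr11:101784533-101785303 reached to within 7 bp of the gene end and had folds of 12.9 in the heterozygous and 12.3 in the homozygous list, with pile-ups of 43 (het) and 73 (hom) reads. Wild type had no peak in the gene or within 1 kb of it, but a wild-type peak with a fold of 5.36 lay at -5910 to -5520 bp outside that end. The homozygous library had a peak there too, at -6032 to -5100 bp with a fold of 9.74, and another with a fold of 9.01 inside the gene.

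Ocln, the gene of the tight junction protein occludin, had its single region across the gene end at chr13:100551950-100553138. Folds were 10.0 in the heterozygous and 9.40 in the homozygous list, pile-ups were 42 (het) and 55 (hom) reads, and the nearest wild-type peak was 28617 bp away. This was the only merged region assigned to Ocln in the 3 libraries.

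**Figure D3:**
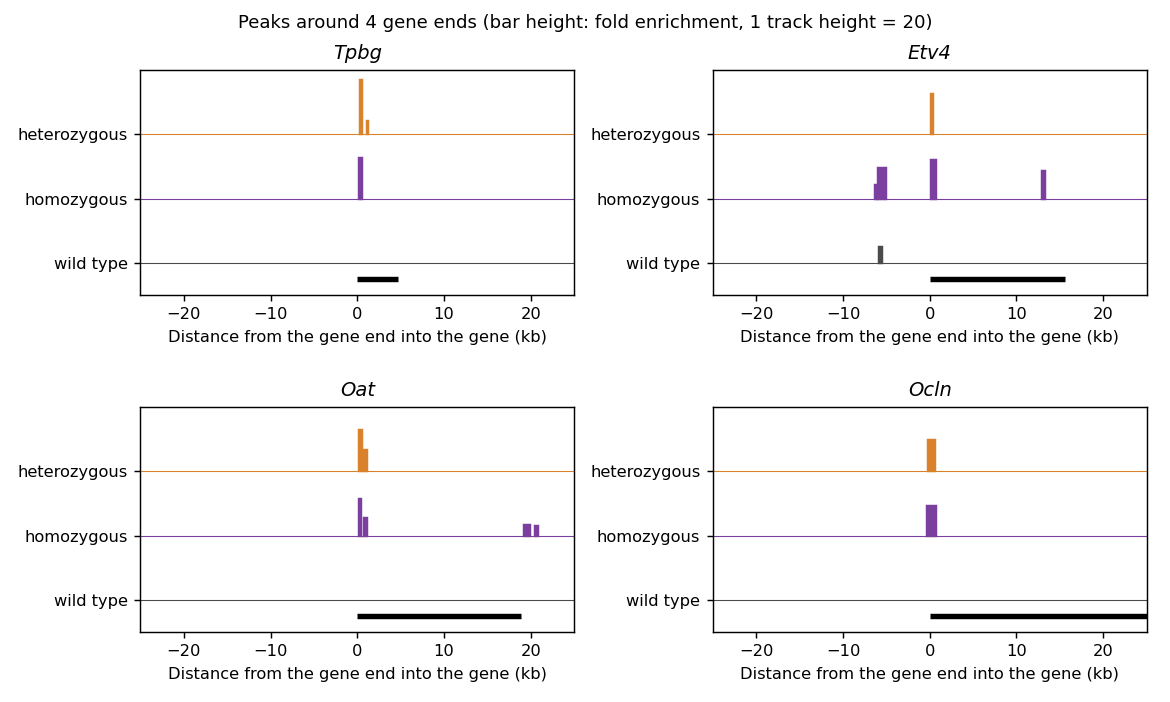
Called peaks around the gene ends of Tpbg, Etv4, Oat and Ocln in the heterozygous, homozygous and wild-type library, by distance from the gene end into the gene (x axis, kb). Bar height is the authors' fold enrichment within each library, and the thick line is the gene. At the gene end itself all 4 genes had a heterozygous and a homozygous peak, and wild type had none, with its nearest peak at Etv4 between -5910 and -5520 bp.

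Other regions of the same kind lay at ends of genes with no wild-type peak within 1 kb of that end. There were 107 such regions at 99 genes. Among the 10 strongest, Tmem163, which encodes a zinc-handling vesicle membrane protein, had folds of 10.1 in the heterozygous and 8.68 in the homozygous list, 95221 bp from a wild-type peak. Gpr39, a zinc-sensing G protein-coupled receptor gene, had 7.89 (het) and 10.2 (hom). Grb14, whose product binds the insulin receptor and dampens its signal, had 7.54 (het) and 8.65 (hom) at its end and 2 further regions, 5.77 (het) and 6.09 (hom) just outside that end and 4.53 (het) and 5.96 (hom) inside the gene. No merged region with a wild-type peak was assigned to Grb14. Shc4, a receptor adaptor gene, had 7.10 (het) and 9.47 (hom), Sowahb 8.80 (het) and 8.57 (hom), and Myorg, which encodes a glycosidase, 7.58 (het) and 8.44 (hom).

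Away from gene ends, the strongest region of the set lay 18469 bp from an end of Cyp2d34, a cytochrome P450 gene, at chr15:82597150-82597493. Its folds were 15.7 in the heterozygous and 24.3 in the homozygous list, with pile-ups of 42 (het) and 73 (hom) reads. It was the only merged region assigned to Cyp2d34. A region inside Cdkl4, a cyclin-dependent kinase-like gene, had folds of 10.2 (het) and 16.1 (hom), and it too was the only one of its gene. A region 34319 bp from Pttg1, which encodes the mitotic regulator securin, had 10.6 (het) and 11.5 (hom), and a region 13130 bp from Ccne1, the cyclin E1 gene, had 9.51 (het) and 11.9 (hom). The remaining 3 of the 10 highest-ranking regions, on chromosomes 14, X and 1, had no gene end within 100 kb.

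The distance to the nearest wild-type peak separated kinds of region. The median distance was 9512 bp, and 403 regions (24.1%, 95% Wilson interval 22.1 to 26.2%) had a wild-type peak within 1 kb. Wilson intervals here cover counting error only. The wild-type peak next to those 403 regions belonged in 339 cases (84.1%) to a region present in all 3 libraries. These regions were weak within their lists, with median percentiles of 19.9 in the heterozygous and 18.9 in the homozygous list, and 26.3% of them lay at a gene end. A further 231 regions had the nearest wild-type peak 1 to 5 kb away, with percentiles of 17.7 (het) and 18.8 (hom). For the 768 regions at 5 to 50 kb the percentiles were 40.4 (het) and 44.5 (hom). For the 269 regions over 50 kb from any wild-type peak, 16.1% of the set, they were 50.8 (het) and 50.0 (hom), and 57.3% of those regions were intergenic. The pile-ups ran the other way, with medians of 38 heterozygous and 44 homozygous reads within 1 kb of a wild-type peak, and 24 (het) and 25 (hom) over 50 kb from one.

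Values on both sides of the rule were as follows. The region closest to a wild-type peak lay 4 bp from it, at chr11:64792894-64793175, with folds of 5.59 in the heterozygous and 5.44 in the homozygous list. A region inside Cpe, the gene of a prohormone-processing carboxypeptidase, was 8 bp from one, with folds of 2.58 (het) and 2.65 (hom). Just outside, a wild-type peak reached 17 bp into a region inside Plcb1, a phospholipase C gene, where the folds were 5.92 in the heterozygous, 4.94 in the homozygous and 7.23 in the wild-type list. Another reached 25 bp into a region near Prss16, with folds of 4.65 (het), 3.87 (hom) and 3.60 (wild type). A peak list holds no value where no peak was called, so the wild-type level at the 1671 regions is not known here. The lowest pile-up of a called wild-type peak was 11 reads and the first quartile 28, and in 731 regions (43.8%) both knockout pile-ups were at or above that quartile. ChIP on a culture does not tell a lower signal in every cell from fewer cells with the mark.

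**Figure D4:**
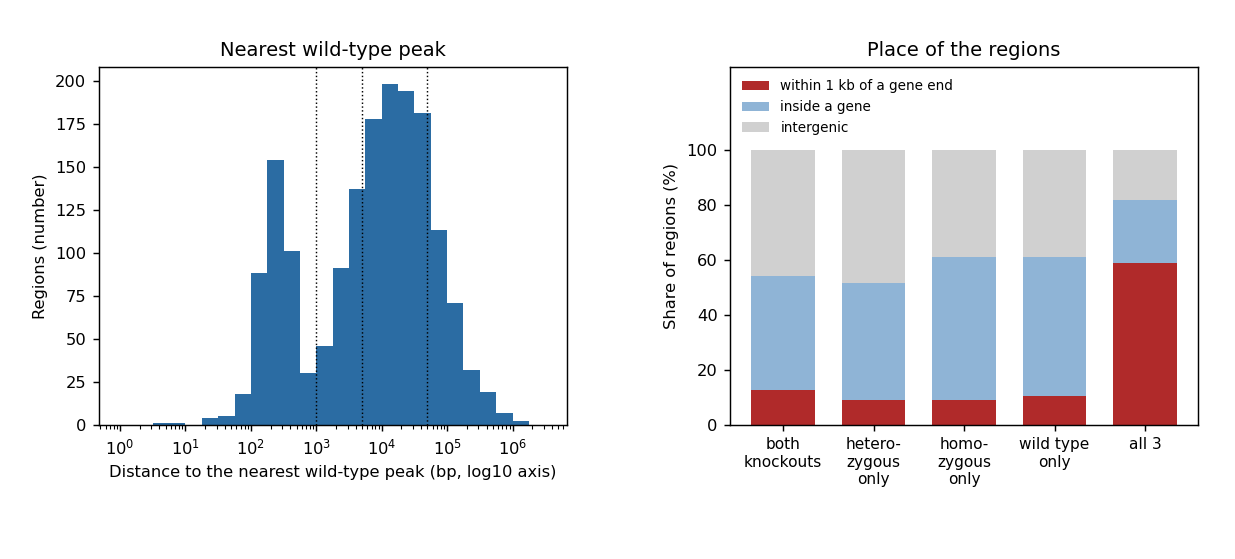
Left, number of regions in both knockouts and not in wild type by distance to the nearest wild-type peak (x axis, bp, log10 scale), with dotted lines at 1, 5 and 50 kb and 403 regions left of the first. Right, share of regions (y axis, %) within 1 kb of a gene end, inside a gene or intergenic, by presence over the libraries, where the share at a gene end was 12.5% for the regions in both knockouts and 58.9% for those in all 3.

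By place, 209 of the 1671 regions (12.5%, 11.0 to 14.2%) lay within 1 kb of a gene end, 697 (41.7%) inside a gene and 765 (45.8%) between genes. The regions of all 3 libraries had 58.9% at a gene end and 18.4% between genes. Closer in place were the regions of the heterozygous library alone, with 9.02% at a gene end, of the homozygous library alone, with 9.06%, and of wild type alone, with 10.4%. Regions of wild type and 1 knockout had 20.2% (heterozygous) and 18.2% (homozygous) at a gene end. Of the 209 gene-end regions 106 (50.7%) had a wild-type peak within 1 kb, against 22.2% of those inside a gene and 18.6% of the intergenic ones. Some regions lay close to each other: 326 (19.5%, 17.7 to 21.5%) had another region of the set within 1 kb, and raising the limit to 5 kb added only a few, to 339. Myh9, Mcph1, Dusp4, Etv5, Shc3 and Gm4606 had such neighbours. The same share was not computed for other kinds of region, so it is not known whether this is particular to the set. By chromosome, the share of all regions that belonged to the set was 4.66% on chromosome 14 (90 of 1930, 3.81 to 5.70%) and 2.01% on chromosome X (28 of 1391, 1.40 to 2.89%). Chromosome Y, with 2 of 40 regions (5.0%, 1.38 to 16.5%), holds too few to place.

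Of 1 Mb windows, the densest lay on chromosome 1 at 85 to 86 Mb and on chromosome 6 at 121 to 122 Mb, with 9 regions each. The chromosome 1 window spans the nuclear body genes Sp110 and Sp140 with Gm2427, Gm7592, Gm7609 and C130026I21Rik. Folds there ran from 1.96 to 6.06 on high pile-ups, for example 130 heterozygous and 158 homozygous reads at a C130026I21Rik region with folds of 1.96 (het) and 2.25 (hom). Regions in multi-copy sequence were kept, and no source used here says how reads with several matches were placed. In the chromosome 6 window, Slc6a12 and Slc6a13, genes of transporters for betaine and GABA, had 3 regions and 1 region, and Iqsec3, a guanine nucleotide exchange factor gene of inhibitory synapses, had 4. The Iqsec3 regions had folds of 6.72, 5.65, 7.56 and 4.59 in the heterozygous list and 6.31, 7.0, 8.98 and 6.20 in the homozygous list. Next came chromosome 12 at 112 to 113 Mb with 8 regions, 2 of them at the formin gene Inf2 and 1 near the Notch ligand gene Jag2, where the folds were 8.87 (het) and 7.05 (hom).

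Of the 1671 regions 1411 (84.4%) had an end of a protein-coding gene within 100 kb, and each was assigned to the nearest, which does not show that it regulates that gene. They fell to 1130 genes, which is 5.16% of 21887 protein-coding genes and 7.88% of the 14333 genes with any merged region. Most of these genes, 895, had 1 region, 198 had 2, 29 had 3, 7 had 4 and 1 had 5. That gene was Irf2bp2, which encodes a transcriptional corepressor, with folds of 2.46 to 3.88 in the heterozygous and 2.35 to 4.86 in the homozygous list and wild-type peaks 388 to 2494 bp away. It had 12 heterozygous, 17 homozygous and 12 wild-type regions in all.

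The genes with 4 regions differed in how much wild-type signal lay around them. Myh9, which encodes nonmuscle myosin IIA, had 8 heterozygous, 10 homozygous and 3 wild-type regions. Its pair inside the gene, 40306 and 39459 bp from a wild-type peak, had folds of 5.21 and 4.99 in the heterozygous and 4.25 and 5.22 in the homozygous list. The other Myh9 regions, outside the gene, lay 917 and 225 bp from a wild-type peak. Mcph1, a gene of chromosome condensation, had 5 het, 6 hom and 1 wild-type region, with 4 regions inside the gene at folds of 4.24 to 5.27 in the heterozygous and 4.92 to 7.97 in the homozygous list. Map3k5, the gene of the stress kinase ASK1, had 6 het, 7 hom and 7 wild-type regions, and its 4 regions lay 25024 to 70055 bp from a wild-type peak. Rasgrf1, a Ras exchange factor gene, had 8 het, 5 hom and 4 wild-type regions. Its regions, all outside the gene, had folds of 4.37 to 6.31 in the heterozygous and 6.25 to 9.83 in the homozygous list.

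Among the genes with 3 regions, Nefl, the neurofilament light chain gene, had 4 heterozygous, 6 homozygous and 1 wild-type region, and its strongest region had folds of 7.54 (het) and 8.49 (hom). Pcgf5, a Polycomb subunit gene, had 7 het, 6 hom and 2 wild-type regions, with a row of 3 regions over 85 kb from any wild-type peak and a strongest region at 6.51 (het) and 7.87 (hom). Nedd9, a focal adhesion scaffold gene, had 8 het, 9 hom and 6 wild-type regions, and Col16a1, a collagen gene, had 7 het, 3 hom and 5 wild-type regions. Rere, a corepressor gene, had 15 het, 21 hom and 22 wild-type regions, and Ttc8, a gene of the ciliary BBSome, had 13 het, 13 hom and 17 wild-type regions. The predicted gene Gm4606 had 5 het, 6 hom and 1 wild-type region.

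At 151 of the 1130 genes no merged region with a wild-type peak was assigned, and 26 of these genes had 2 or more regions of the set. Shc3 led them with 4, followed by Grb14, Insyn1, a gene of inhibitory synapses, and Vmp1, an autophagy gene, with 3 each. Among those with 2 were Oat, the galectin gene Lgals1, the kinase gene Sgk2, the calcium-binding protein gene S100a2, and Inf2.

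Genes of ErbB and MAPK signalling were looked at by role. Shares of list genes, here and below, are over all genes of a list, and the like share is 5.16% of all protein-coding genes. The 7.88% covers only genes with any merged region. Among 11 EGF family ligand genes only Nrg3, a neuregulin gene, had a region (9.09%, against 5.16%). That was 1 of the 8 ligand genes with any merged region (against 7.88%). The Nrg3 region lay at the gene end with folds of 6.08 in the heterozygous and 4.71 in the homozygous list, 298157 bp from a wild-type peak. Of 28 genes of ErbB receptors and proximal regulators 5 had a region (17.9%, against 5.16%). Those were 5 of the 26 with any merged region (against 7.88%). Of the 114 regions of that list 9 belonged to the set (7.90%, against 3.10% of all assigned regions). At the receptor gene Egfr 1 region inside the gene had folds of 4.50 (het) and 5.08 (hom). The adaptor gene Shc3 had 4, with folds of 5.61, 5.31, 5.91 and 4.04 in the heterozygous and 6.61, 5.95, 7.80 and 8.90 in the homozygous list, the last of them across the gene end, and Shc4 had 1. Errfi1, the feedback inhibitor of EGFR, had 2 regions more than 50 kb from the gene, with folds of 3.15 and 4.21 in the heterozygous and 4.89 and 5.00 in the homozygous list. Eps15, an endocytic EGFR substrate gene, had 1 with 7.39 (het) and 5.85 (hom).

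In the MAPK and immediate early list 10 of 30 genes had at least 1 region (33.3%), and 13 of its 163 regions belonged to the set (7.98%, against 3.10% of all assigned regions). All 30 genes had at least 1 merged region, so the share to set beside the 33.3% is 7.88%. Shares of genes are not adjusted for regions per gene, here or in the other lists. The MAPK list held 163 regions over 30 genes, against 45549 assigned regions over 14333 genes in all. Among the feedback inhibitors, Spry4 had a region at its end with folds of 4.28 in the heterozygous and 6.01 in the homozygous list, and a wild-type peak 209 bp away. Dusp4, an ERK phosphatase gene, had a pair over 45 kb from the gene and from any wild-type peak, with 7.10 and 6.01 in the heterozygous and 6.73 and 8.15 in the homozygous list. Spred2 had 1 region with 5.35 (het) and 4.50 (hom). All 3 genes of the PEA3 group of ETS factors had a region: Etv4 as described, Etv5 with a pair inside the gene at 5.04 and 5.91 in the heterozygous and 4.32 and 4.33 in the homozygous list, and Etv1 with 5.06 (het) and 4.16 (hom). Of the immediate early factor genes, Myc had 2 regions with 2.97 and 5.23 in the heterozygous and 4.20 and 5.12 in the homozygous list, the first of them 181 bp from a wild-type peak. Jun had 1 with 5.00 (het) and 5.17 (hom), Fosl2 1 with 4.48 (het) and 5.63 (hom), and Klf6 1 with 4.43 (het) and 5.97 (hom). Apart from Etv4 and the Dusp4 pair, most of these folds lay below the medians of the lists, and the regions of Jun, Fosl2 and Klf6 were over 30 kb from the gene. Under the alternative settings the number of MAPK genes with a region ran from 4 to 13, and that of ErbB genes from 2 to 6.

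Of 18 genes counted as normally silent in beta cells 5 had a region (27.8%, against 5.16% of all genes). Those were 5 of the 17 with any merged region (against 7.88%), with 7 of 100 regions (7.0%, against 3.10% of all assigned regions). Besides Oat they were Maf, Smad3, Slc16a1 and Cxcl12. Maf, a transcription factor gene of alpha cells, had a region across its end with folds of 4.76 in the heterozygous and 3.08 in the homozygous list and another 99042 bp away with 7.39 (het) and 5.48 (hom), and had no wild-type region. Smad3, which transmits TGF-beta signals, had 1 with 6.17 (het) and 9.55 (hom), 35247 bp outside the gene, which had 7 heterozygous, 2 homozygous and 5 wild-type regions in all. The lactate transporter gene Slc16a1 had 1 with 4.08 (het) and 3.66 (hom), and the chemokine gene Cxcl12 1 with 5.34 (het) and 5.25 (hom), over 300 kb from a wild-type peak. Of this list 5 of 18 genes also had a gene-end peak in all 3 libraries, so its name does not describe every gene here. Over the alternative settings 2 to 5 of the genes had a region.

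By share of regions, the lists of beta cell genes were near the 3.10% of all assigned regions. By share of genes, the secretory list stood above the 7.88% of genes with any region. Of 20 beta cell transcription factor genes 2 had a region (10.0%), Glis3 with 2 inside the gene and Foxo1 with 1. In that list 3 of the 128 regions belonged to the set (2.34%). Of 36 secretory genes 7 had a region (19.4%), with 9 of 223 regions (4.04%). Over the alternative settings the count of genes ran from 0 to 6 for the factors and from 1 to 7 for the secretory list. The secretory genes with a region were Syt7 and Cpe with 2 each and Ero1b, Abcc8, Ins2, Scg5 and Scg2. The region inside Abcc8, the sulfonylurea receptor gene, had folds of 2.26 in the heterozygous and 1.92 in the homozygous list on pile-ups of 129 (het) and 125 (hom) reads, and lay 2517 bp from a wild-type peak. Among neuronal and axon guidance genes 8 of 33 had a region (24.2%, against 5.16% of all genes). Those were 8 of the 28 with any merged region (against 7.88%). Of the 210 regions of that list 11 belonged to the set (5.24%, against 3.10%), and over the alternative settings the count of genes ran from 0 to 10. Sv2c, a synaptic vesicle protein gene, had 2 and the semaphorin gene Sema6a 2, and the semaphorin receptor gene Nrp1 1 with 5.71 (het) and 3.77 (hom). Of 16 YAP and TEAD targets 3 had a region (18.75%, against 5.16% of all genes), with 4 of 47 regions (8.51%, against 3.10%). Those were 3 of only 7 targets with any merged region (against 7.88%), and over the alternative settings the count ran from 2 to 3. Amotl2, which encodes an angiomotin that restrains YAP, had folds of 5.48 and 4.69 in the heterozygous and 5.92 and 6.46 in the homozygous list. Amotl1 had 5.21 (het) and 5.42 (hom) at 166 bp from a wild-type peak, and the Hippo kinase gene Lats2 had 8.05 (het) and 6.22 (hom) at its end. Islet progenitor genes had 2 of 19 (10.5%), Hes1 and Cck, with 2 of 70 regions (2.86%), and the Hes1 region lay 180 bp from a wild-type peak. The cell cycle list had 1 of 20 (5.0%), Ccne1, with 1 of 62 regions (1.61%).

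The SWI/SNF list had 2 of 28 genes with a region (7.14%, against 5.16% of all genes). Those were 2 of the 27 with any merged region (against 7.88%). Of its 110 regions 2 belonged to the set (1.82%, against 3.10% of all assigned regions). These were Arid1b, with a region 47099 bp from the gene at 5.28 in the heterozygous and 4.96 in the homozygous list, 506 bp from a wild-type peak, and Smarca2, an ATPase gene of the complex, with 4.35 (het) and 4.74 (hom) inside the gene, 227 bp from a wild-type peak. With no wild-type peak allowed within 1 kb, 0 genes of the list had a region. Arid1a had 0 regions of the set and 4 heterozygous, 6 homozygous and 5 wild-type regions, which does not check the edit. Slc4a1ap had a pair outside the gene with 4.69 and 4.87 in the heterozygous and 7.75 and 5.70 in the homozygous list.

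Lists of markers of other cell types are short, and at 7.88% of genes with any region a count of 0 or 1 in such a list is no result. Alpha cell markers had 0 of 9 genes, delta, PP and epsilon markers 0 of 7, acinar markers 0 of 11, mesenchymal markers 0 of 13 and immune and endothelial markers 0 of 14, and duct and keratin markers had 1 of 13, Krt8, at folds of 3.78 (het) and 3.18 (hom) and 328 bp from a wild-type peak. Housekeeping genes had 0 of 16, of which 15 had a gene-end peak in all 3 libraries.

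In all, 138 of the regions overlapped 161 RefSeq promoters of 150 genes, which is 0.490% of the 32851 promoters in the table. The AP-1 motif TGACTCA was present in 22 of the 161 (13.7%, 9.20 to 19.8%), at 21 genes, of which only 10 were protein-coding. The share was not split by gene type for any set of promoters. It was present in 9.38% (6.21 to 13.9%) of 224 promoters under regions of the heterozygous library alone and in 5.96% (3.80 to 9.22%) of 302 under regions of the homozygous library alone. Under regions of wild type alone the share was 3.41% (2.31 to 5.03%) of 703, under regions of all 3 libraries 2.91% (2.61 to 3.25%) of 10592, and among all promoters 5.20%. The interval of the regions in both knockouts thus lay above that of each set with wild-type peaks, while it overlapped that of the heterozygous regions widely and that of the homozygous regions at its lower bound. Promoters are not independent samples of a genotype, and the intervals say nothing of other clones. The protein-coding genes with a match were Gpr39, Shc4, Odaph, Entpd3, Gatad2a, the urokinase receptor gene Plaur, the lamin gene Lmna, the ETS factor gene Elf1, Phyhd1 and Tnpo2. When the motif had to lie within the peak region itself, 7 of 161 promoters remained (4.35%, 2.12 to 8.70%), against 1.85% (1.61 to 2.13%) under regions of all 3 libraries, and those intervals touched. The share was 3.57% (1.82 to 6.89%) under heterozygous-only, 1.99% (0.914 to 4.27%) under homozygous-only and 1.85% (1.08 to 3.14%) under wild-type-only regions. These intervals overlapped that of the set. Under regions of heterozygous and wild type the share was lower, at 0.825% (0.353 to 1.92%).

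Other motifs were searched in the same windows and on both strands. The CRE, TGACGTCA, a run that holds no TGACTCA but can share its first or last letters with one, was in 1 of 161 promoters (0.621%). It was in 1.34% under heterozygous-only, 0.331% under homozygous-only and 0.711% under wild-type-only regions, in 3.79% under regions of all 3 libraries and in 1.79% of all promoters, so the low share was not particular to the set. The FOXA motif TGTTTAC was in 0 of 161, with an upper Wilson bound of 2.33%. Its share was 3.12% under heterozygous-only, 1.99% under homozygous-only and 4.41% under wild-type-only regions. Under regions of all 3 libraries it was 2.44%, and among all promoters 3.65%. The homozygous-only share thus lay below that bound, and the share for all 3 libraries just above it. The TEAD motif GGAATG was in 15.5%, against 10.5% under regions of all 3 libraries and 14.7% of all promoters, and the ETS core GGAAG in 72.0%, against 75.9% under regions of all 3 libraries and 71.4% of all promoters. The E-box CANNTG was in 72.7%, against 71.4% for heterozygous-only, 71.9% for homozygous-only, 71.8% for wild-type-only and 60.3% for regions of all 3 libraries, and 72.3% of all promoters. The GC box was in 55.3%, against 58.5% for heterozygous-only, 52.0% for homozygous-only, 52.3% for wild-type-only and 68.8% for regions of all 3 libraries. Both shares were thus near those of the regions of 1 library alone. The promoters under these regions had a median GC content of 60.3% and 17 CG dinucleotides, against 62.7% and 23 for regions of all 3 libraries and 52.7% and 7 for all promoters. Base composition thus differed between these sets, and its part in the motif shares was not tested. Promoters under regions of homozygous and wild type had a median GC content of 60.5% and an AP-1 share of 3.47%.

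**Figure D5:**
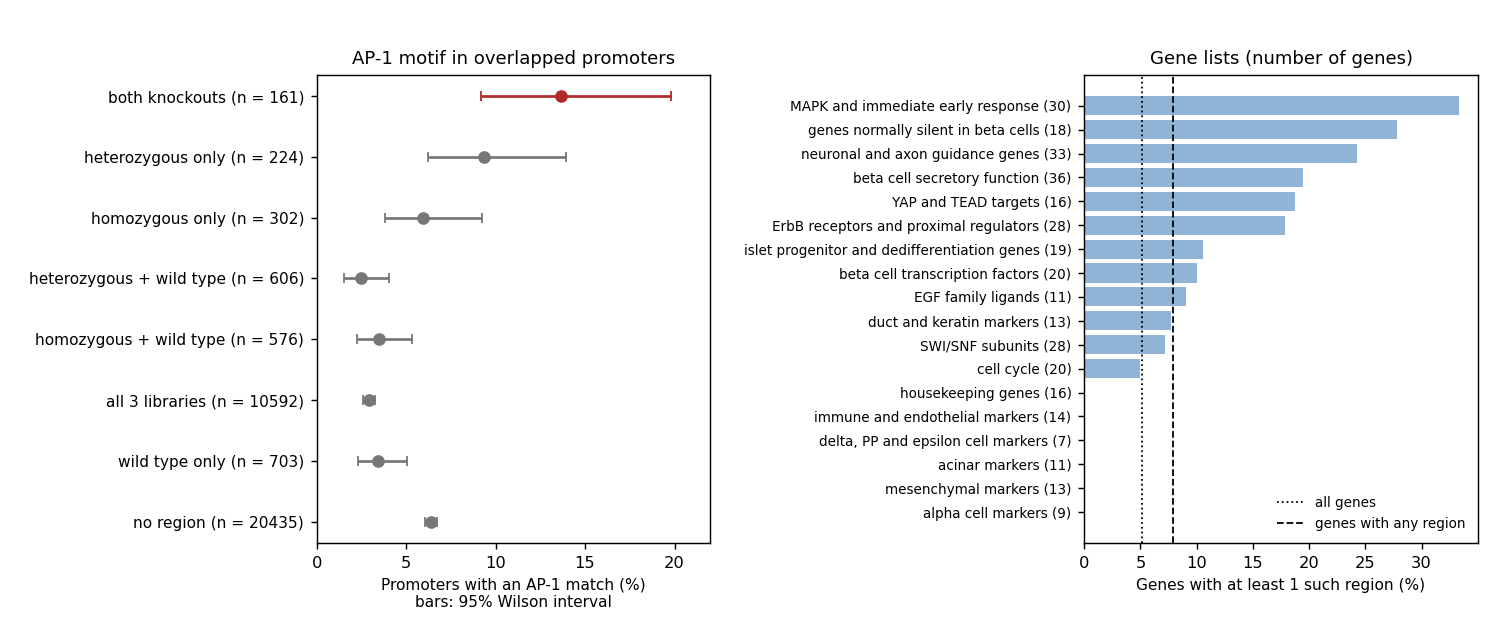
Left, share of RefSeq promoters with an AP-1 match (x axis, %) by the kind of region over them, with 95% Wilson intervals, where the regions in both knockouts stand at 13.7% and those in all 3 libraries at 2.91%. Right, share of genes in each list with at least 1 region in both knockouts and not in wild type (x axis, %), with lines at 5.16% of all genes and 7.88% of genes with any region, where the MAPK list reaches 33.3%.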

How the data were processed

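H3K27ac ChIP-seq peaks were compared between a heterozygous Arid1a knockout, a homozygous knockout and a wild-type clone of MIN6, with 1 library each. Per the submitters' processing notes, the authors used bcl2fastq and MACS2 with build mm10, and 1 peak list was deposited for each library. No source used here gives the tools' versions, the aligner, the control or the calling threshold. Each deposited peak has a score, a fold enrichment (a ratio over local background), −log10 p, −log10 q and a summit offset. The deposited score is 10 times the −log10 q in nearly all peaks. The summit offset in the deposited lists gives the distance of the summit from the peak's start. No read totals were at hand, so pile-ups and background were solved from the deposited fold and −log10 p to within 0.001. That solution, found for 31363 heterozygous, 34297 homozygous and 41489 wild-type peaks, was not checked against reads.

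Merging was done in Python 3.11.15 (pandas 2.3.3, numpy 2.4.6, scipy 1.17.1), tested on simulated peaks, and checked with bedtools 2.31.1, which gave the same 52938 regions. Figures were drawn with matplotlib 3.10.9. Genes were 21887 protein-coding genes of RefSeq on GRCm38.p6. This table gives no strand or exons, so a gene-end region is one at most 1 kb from either gene end, and introns and UTRs are not known here. The promoter table is not complete. Of 343 entries in 18 gene lists 342 matched a symbol.

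Named genes were the 15 with the most regions, those of the 10 highest-ranking regions by the smaller of the fold percentiles in both lists, those of the 10 highest-ranking gene-end regions with no wild-type peak within 1 kb of the end, those in the 5 densest windows, Shc3, Iqsec3, Slc4a1ap and Arid1a, list genes with a region (up to 4 in the lists outside ErbB, MAPK, SWI/SNF and silent genes). Genes named beyond this rule, among them Insyn1, Vmp1, Lgals1, Sgk2, S100a2, Ins2, Scg5, Scg2, Plcb1, Prss16 and those with an AP-1 promoter, were picked with their values in view. The regions and lists were chosen with earlier results of these data known.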

Additional observations from a re-analysis of the deposited data

How the results depend on the processing

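No paired analysis was possible because each genotype had 1 library. The number of regions was 1671 as reported, 1037 with no wild-type peak allowed within 5 kb and 725 with a fold of at least 5 in the knockout lists, and stayed between 1172 and 2341 in the other settings, the highest with lists of equal length. The share at a gene end, 12.5% as reported, was 8.12% with no wild-type peak within 1 kb, 8.0% with none within 5 kb, 9.22% with peaks up to 500 bp apart merged, 17.3% with a −log10 q of at least 10 in all lists, 16.4% with lists of equal length and 17.6% with 2.5 kb around a gene end. The 1130 genes became 685 with no wild-type peak within 5 kb, 540 at a fold of at least 5 and 518 with the nearest end within 10 kb, and the 47 list genes became 29, 16 and 21 in the same settings. The share with a wild-type peak within 1 kb, 24.1% as reported, was 1.79% after merging over 500 bp and 10.2% at a fold of at least 5. Each of these settings drops or adds regions by its own construction. The AP-1 share ran from 10.2% with lists of equal length to 16.7% with no wild-type peak within 5 kb. These alternatives of the AP-1 share and of the distance were chosen after seeing the data. Of 86 named genes 18 had a region in every setting, among them Tpbg, Oat, Etv4, Ocln, Shc3, Shc4, Grb14, Gpr39 and Maf, and 257 of 1118 counts for single genes moved by over 1.5 times. Read totals are not known, and the lowest recovered background was higher in wild type, at 2.17, than in the knockouts, at 1.73 (het) and 1.74 (hom). Unknown depth and the 1 library a genotype limit every statement on absence.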
